A study of Rattus norvegicus with 17 samples.

Results

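The 6 genes that the study lists as microglial markers were followed through 17 RNA-Seq libraries of rat hippocampus, out of 32494 genes listed and 22664 that were not at 0 in every library. They were taken by Ensembl identifier: Csf1r (ENSRNOG00000018414), P2ry13 (ENSRNOG00000029756), Selplg (ENSRNOG00000000699), Tmem119 (ENSRNOG00000000700), C1qa (ENSRNOG00000012807) and Pycard (ENSRNOG00000019675). All 6 were measured in every library, and the rule that names them uses no expression value. The study asked how far untreated animals differ between laboratories that follow nearly the same protocol. Each library came from both whole hippocampi of 1 wild-type male Sprague Dawley rat, with 5 rats at Site #1 (Legacy), 6 at Site #2 (Trinity) and 6 at Site #3 (UAB). Rats of Sites #1 and #2 were bought from Charles River at 8.3 weeks of age, housed 1 to a cage and killed 18 to 19 days after arrival, and their hippocampi were dissected in saline. Rats of Site #3 were bought from Harlan (Envigo) at 8.0 weeks of age, housed 2 to a cage and killed after 27 days, and dissected in bubbled artificial cerebrospinal fluid. No group received a treatment, and vendor, diet, rats per cage, days and buffer all change together at Site #3, so they cannot be told apart. Sites #1 and #2 also differed from each other, in cage type, bedding and time in transit. Body weight differed between Sites #2 and #3 in the study's pairwise comparison, and not in the other pairs.

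Microglia are the resident macrophages of the brain parenchyma. They need signalling through the CSF1 receptor to survive, sense nucleotides through purinergic receptors, make most of the C1q of the brain, and are set apart from other macrophages by surface proteins such as TMEM119. They are a minority of the cells of the hippocampus. The labels name hippocampal tissue as the source of the RNA, and the methods of the study describe extraction from flash-frozen whole hippocampi. In 1 place the methods speak of microglia preparations instead, which bears on what the level of a microglial gene stands for. Markers of other cells were present in all 17 libraries: mean log2 values at the 3 sites ran from 15.12 to 15.28 for the astrocyte gene Gfap and from 14.54 to 14.59 for the neuronal gene Grin1. In tissue, a lower value of a microglial gene can mean fewer microglia or less RNA per cell, and bulk tissue cannot tell these apart. The deposited values are log2 values, and no source used here says that they are scaled to gene length, so each gene was compared between libraries and not with other genes.

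The genomic setting of the 6 genes was read from RefSeq (assembly GRCr8), where all 6 were found. Tmem119 and Selplg are neighbouring protein-coding genes on chromosome 12. C1qa lies beside C1qc on chromosome 5 and Csf1r beside Pdgfrb on chromosome 18. P2ry13 lies within Med12l on chromosome 2, beside P2ry12, and since the strand setting of the counting was not given in the sources used here, reads of P2ry13 and Med12l may not be fully separated. Pycard lies on chromosome 1. Promoter windows of 300 bases, from 250 before the start to 50 after it, were given for 4 of the 6 genes (C1qa, Csf1r, P2ry13 and Pycard). They were searched on both strands for GAGGAAG, a core of the myeloid factor PU.1, for the composite element of PU.1 and IRF8, and for TATAAA, the TATA box. GAGGAAG was present in the Csf1r window, 230 bases before the start on the opposite strand, and in 12.4% of all 33469 windows, while the composite element (2.94% of all windows) and TATAAA (14.2%) were in none of the 4. GGAAGT, a core of the ETS factors to which PU.1 belongs, was added after the sequences were seen, and it was present at 2 places in the C1qa window and at 1 in the Pycard window, against 22.6% of all windows. The C1qa window (chr5:154419884-154420183, minus strand) and the Pycard window (chr1:192033370-192033669, minus strand) are shown because they hold that core, in capitals, with Pycard carrying it on the opposite strand as ACTTCC.
C1qa: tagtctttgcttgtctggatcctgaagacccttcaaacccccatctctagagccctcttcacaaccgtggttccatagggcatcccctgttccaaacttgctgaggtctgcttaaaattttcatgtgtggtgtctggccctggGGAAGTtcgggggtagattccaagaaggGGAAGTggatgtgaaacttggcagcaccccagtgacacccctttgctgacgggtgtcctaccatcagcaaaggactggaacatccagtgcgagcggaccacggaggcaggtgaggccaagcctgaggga
Pycard: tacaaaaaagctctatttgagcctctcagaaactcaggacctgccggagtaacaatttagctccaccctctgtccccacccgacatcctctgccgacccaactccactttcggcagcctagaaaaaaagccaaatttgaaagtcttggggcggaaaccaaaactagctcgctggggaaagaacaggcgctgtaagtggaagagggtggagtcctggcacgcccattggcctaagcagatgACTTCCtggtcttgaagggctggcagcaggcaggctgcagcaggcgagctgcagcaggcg
The first bases of the cores lay 107 and 79 bases before the C1qa start and 10 bases before the Pycard start. A match is a string of letters and not a shown binding site.

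No microglial gene was a differentially expressed gene (DEG, adjusted p under 0.05) between any pair of sites, but C1qa and Csf1r were near that threshold for Site #2 against Site #3. These calls are by limma on the deposited log2 values. The study used DESeq2 at the same threshold and reported more DEGs in each pair than limma gave here. C1qa was 1.21-fold higher at Site #3 than at Site #2 (95% interval 1.10 to 1.33) and Csf1r was 1.15-fold higher (1.07 to 1.22). P2ry13, Selplg, Tmem119 and Pycard had intervals that included no difference in this pair. Of the 18 intervals for 6 genes in 3 pairs, 5 did not include 0, and these belonged to Csf1r, C1qa and Tmem119, where 6.74%, 8.17% and 14.8% of all genes had such an interval in the 3 pairs.

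**Figure D1:**
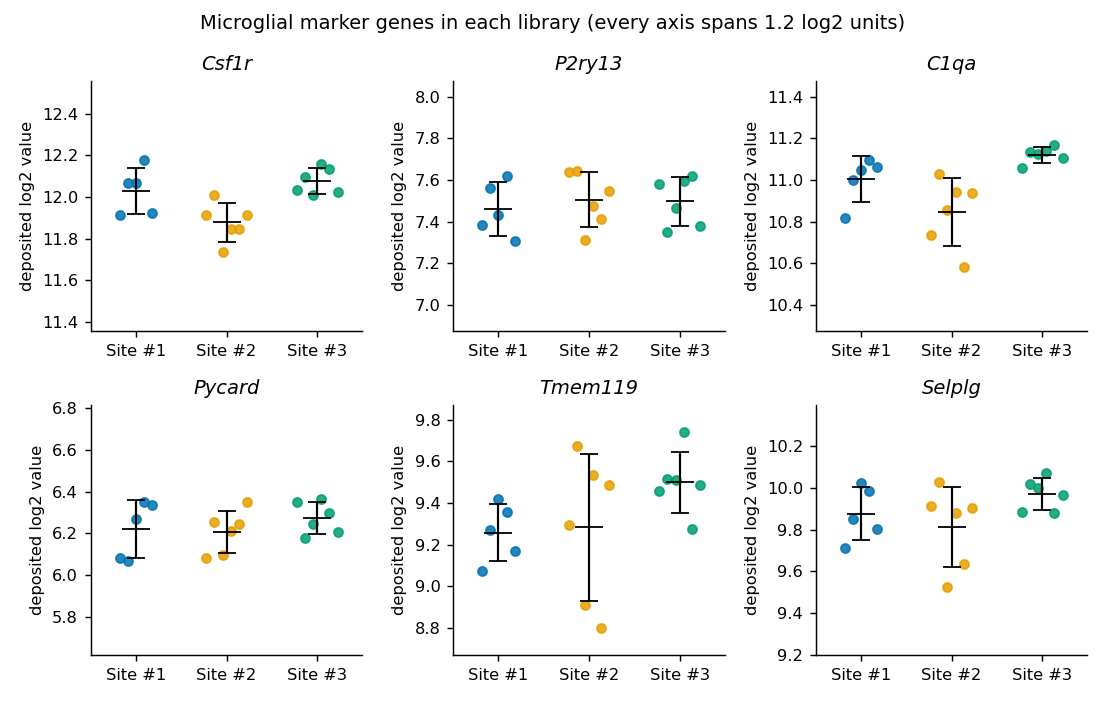
Deposited log2 values of the 6 genes, 1 point per library, in the 5 libraries of Site #1 and the 6 each of Sites #2 and #3; the bar and whiskers are the mean and SD, and every vertical axis spans 1.2 log2 units. C1qa was between 11.06 and 11.17 in the 6 libraries of Site #3, above the highest library of Site #2 at 11.03, while Tmem119 at Site #2 ran from 8.80 to 9.67.

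Csf1r encodes the receptor for CSF1 and IL34. Its log2 values were 11.91, 12.07, 12.07, 12.18 and 11.92 at Site #1, 11.92, 12.01, 11.73, 11.85, 11.85 and 11.91 at Site #2, and 12.03, 12.10, 12.01, 12.16, 12.13 and 12.02 at Site #3. Site #2 was lowest, and its highest library (12.01) reached only the lowest of Site #3 (12.01). The log2 difference of Site #3 from Site #2 was 0.20 (SE 0.044, 95% interval 0.101 to 0.293, adjusted p = 0.0550 by limma with Benjamini-Hochberg adjustment). Site #2 was lower than Site #1 by a log2 difference of -0.15 (SE 0.058, interval -0.278 to -0.0247), with an unadjusted p of 0.0232 and an adjusted p of 0.683 by limma. Sites #1 and #3 overlapped, with a log2 difference of 0.05 (interval -0.0643 to 0.156) that ran from 0.0167 to 0.0828 when 1 library was left out, lowest without replicate 1 and highest without replicate 4 of Site #1.

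P2ry13 encodes a purinergic receptor for ADP. In single libraries it had log2 values of 7.39, 7.56, 7.43, 7.62 and 7.30 at Site #1, 7.64, 7.64, 7.31, 7.48, 7.41 and 7.55 at Site #2, and 7.58, 7.35, 7.46, 7.60, 7.62 and 7.38 at Site #3. The 3 sites covered almost the same range, and site accounted for 2.65% of the sum of squares of the gene, against a median of 13.2% over all genes tested. The log2 difference of Site #3 from Site #2 was -0.01 with an interval from -0.153 to 0.141, so a change of 1.10-fold in either direction was within the error.

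Selplg encodes PSGL-1, a ligand of the selectins. Its log2 values were 9.71, 9.85, 10.02, 9.98 and 9.81 at Site #1, 9.91, 10.03, 9.52, 9.88, 9.63 and 9.90 at Site #2, and 9.89, 10.02, 10.00, 10.07, 9.88 and 9.97 at Site #3. The lowest 2 libraries were replicates 3 and 5 of Site #2, and the sites overlapped. Site #3 differed from Site #2 by 0.16 on the log2 scale (interval -0.0112 to 0.325, adjusted p = 0.377 by limma), and by 0.10 without replicate 3 of Site #2.

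Tmem119 encodes a transmembrane protein used to tell microglia from other macrophages. The values by library were 9.08, 9.27, 9.42, 9.36 and 9.17 at Site #1, 9.29, 9.67, 8.91, 9.53, 8.80 and 9.49 at Site #2, and 9.46, 9.52, 9.51, 9.74, 9.28 and 9.49 at Site #3. Replicates 3 and 5 of Site #2 were again the lowest of all 17 libraries. Site #3 was 1.18-fold higher than Site #1 (log2 difference 0.24, SE 0.080, interval 0.0654 to 0.415), with an unadjusted p of 0.0114 and an adjusted p of 0.402 by limma. Against Site #2 the log2 difference of Site #3 was 0.22 with a wider interval (-0.0888 to 0.519), and it was 0.12 without replicate 5 and 0.14 without replicate 3 of Site #2.

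C1qa encodes the A chain of C1q, which starts the classical complement pathway. Its log2 values were 10.82, 11.00, 11.05, 11.10 and 11.06 at Site #1, 10.73, 11.03, 10.86, 10.94, 10.58 and 10.94 at Site #2, and 11.06, 11.14, 11.12, 11.14, 11.17 and 11.10 at Site #3. Every library of Site #3 was above every library of Site #2, a separation without overlap that 1.95% of all genes tested also had. The log2 difference of Site #3 was 0.27 from Site #2 (SE 0.064, interval 0.137 to 0.412, adjusted p = 0.0618 by limma). From Site #1 it was 0.12 (SE 0.047, interval 0.0145 to 0.218), with an unadjusted p of 0.0286 and an adjusted p of 0.525 by limma, and it was 0.07 without replicate 1 of Site #1, the lowest library of that site. Site #2 had the lowest mean, with a log2 difference from Site #1 of -0.16. Its interval (-0.331 to 0.0146) included 0, with an adjusted p of 0.747 by limma.

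Pycard encodes ASC, the adaptor that joins inflammasome sensors to caspase-1. The libraries had values of 6.08, 6.07, 6.27, 6.35 and 6.34 at Site #1, 6.08, 6.26, 6.09, 6.21, 6.24 and 6.35 at Site #2, and 6.35, 6.18, 6.25, 6.37, 6.30 and 6.21 at Site #3. The sites overlapped almost wholly, and the differences in the 3 pairs were between -0.01 and 0.07 on the log2 scale.

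**Figure D2:**
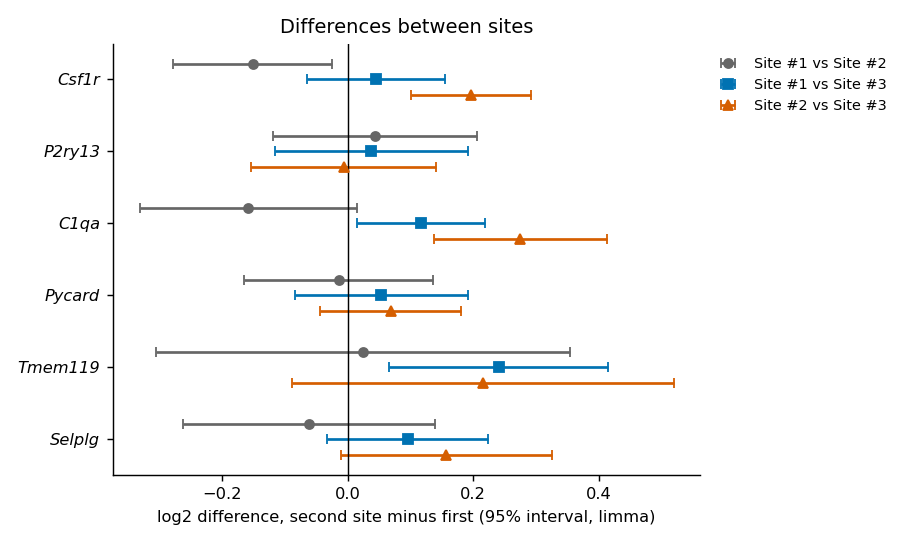
Log2 difference, second site minus first, for each gene and pair of sites; points are limma estimates and bars their 95% intervals. For Site #2 against Site #3, C1qa at 0.27 and Csf1r at 0.20 have intervals above 0, while P2ry13 lies at -0.01.

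By limma, 0 of 6 genes were DEGs for Site #1 against Site #2 (0.00% of all genes tested were DEGs), 0 of 6 for Site #1 against Site #3 (0.101%) and 0 of 6 for Site #2 against Site #3 (1.05%). At an unadjusted p under 0.05 the counts were 1 of 6 (6.74% of all genes), 2 of 6 (8.17%) and 2 of 6 (14.8%). The 1 gene of the first pair was lower at Site #2 (3.21% of all genes were), and those of the other pairs were all higher at Site #3 (3.76% and 7.24% of all genes). The libraries of the sites did not overlap in 0 of 6 genes (0.878% of all genes), 0 of 6 (1.38%) and 1 of 6 (1.95%). Whatever the p, 2 of 6 genes were above 0 in Site #2 minus Site #1 (49.4% of all genes), with a median log2 difference of -0.04, which ran from -0.08 (without replicate 2 of Site #2) to 0.0021 (without replicate 3 of Site #2) when 1 library was left out. The share above 0 was 6 of 6 (52.9%) in Site #3 minus Site #1, with a median of 0.07 (0.04 without replicate 1 of Site #1), and 5 of 6 (50.5%) in Site #3 minus Site #2, with a median of 0.18. The median over all genes tested was between -0.000101 and 0.000204 in the 3 pairs. Site #3 against the mean of the other sites, in a fit of all 17 libraries, gave log2 differences of 0.20 for C1qa (adjusted p = 0.119) and 0.12 for Csf1r (adjusted p = 0.237). It gave 0 of 6 DEGs (0.768% of all genes) and 2 of 6 genes higher at Site #3 at an unadjusted p under 0.05 (6.08%), with 6 of 6 differences above 0 (50.0%). The test for any difference among the 3 sites also gave 0 of 6 DEGs (0.507%) and 2 of 6 at an unadjusted p under 0.05 (12.4%), again C1qa (adjusted p = 0.104) and Csf1r (adjusted p = 0.123). The pairs share libraries, so these comparisons are not independent of each other.

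An exact permutation test of each difference in means, two-sided and not adjusted for the number of tests, gave a p under 0.05 in 5 of the 18. These were 1 of 6 for Site #1 against Site #2 (9.67% of all genes by the same test), 2 of 6 for Site #1 against Site #3 (8.40%) and 2 of 6 for Site #2 against Site #3 (14.1%). For Site #2 against Site #3 the exact p was 0.00216 for C1qa, which is the smallest that the assignments of 6 and 6 libraries allow, and 0.00433 for Csf1r. The exact p was 0.0130 for C1qa and 0.0238 for Tmem119 in Site #1 against Site #3, and 0.0303 for Csf1r in Site #1 against Site #2. The call of C1qa and Csf1r by adjusted p turned on the setting: both were DEGs between Sites #2 and #3 when only genes with a mean log2 value of at least 5 were tested (0.0339 and 0.0322) or without replicate 2 of Site #2 (0.0479 and 0.0379). C1qa was also a DEG in a fit of all 17 libraries (0.0443), and Csf1r after quantile normalization (0.0358).

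In 4 libraries (replicate 5 of Site #1, replicate 3 of Site #2 and replicates 1 and 2 of Site #3) Col1a1, a collagen gene of meninges and vessel wall, was between 10.07 and 10.95, against at most 8.95 in the others. Without these 4, an alternative added after seeing the data, the smallest adjusted p of a microglial gene between Sites #2 and #3 was 0.242, and all genes gave 29 DEGs in place of 239. That count moved with single libraries too: leaving out any 1 of them gave 81 (without replicate 6 of Site #3) to 153 DEGs, except for 333 without replicate 1 of Site #2. Leaving out the libraries of high Col1a1 took replicate 3 of Site #2 and replicates 1 and 2 of Site #3 from this pair. Fewer libraries by themselves make a DEG call harder, and their part in the lower count was not tested. The log2 differences without them were 0.29 for C1qa and 0.17 for Csf1r, against 0.27 and 0.20 with all libraries of the 2 sites.

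The spread within sites was uneven among the 6 genes. The pooled SD within sites was 0.241 for Tmem119, 0.141 for Selplg, 0.126 for P2ry13, 0.116 for C1qa, 0.106 for Pycard and 0.0891 for Csf1r on the log2 scale, against a median of 0.0666 over all genes tested. The SD of Tmem119 was larger than that of 98.1% of all genes and of 96.6% of the 2146 genes with a mean within 0.5 log2 units of its own. By site its SD was 0.138 at Site #1, 0.353 at Site #2 and 0.148 at Site #3. For all 6 genes the SD was smaller at Site #3 than at Site #2, as it was for 54.5% of all genes. Site accounted for 54.6% of the sum of squares of C1qa and 53.2% of that of Csf1r, but for 21.1% in Selplg, 19.9% in Tmem119 and 8.94% in Pycard.

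**Figure D3:**
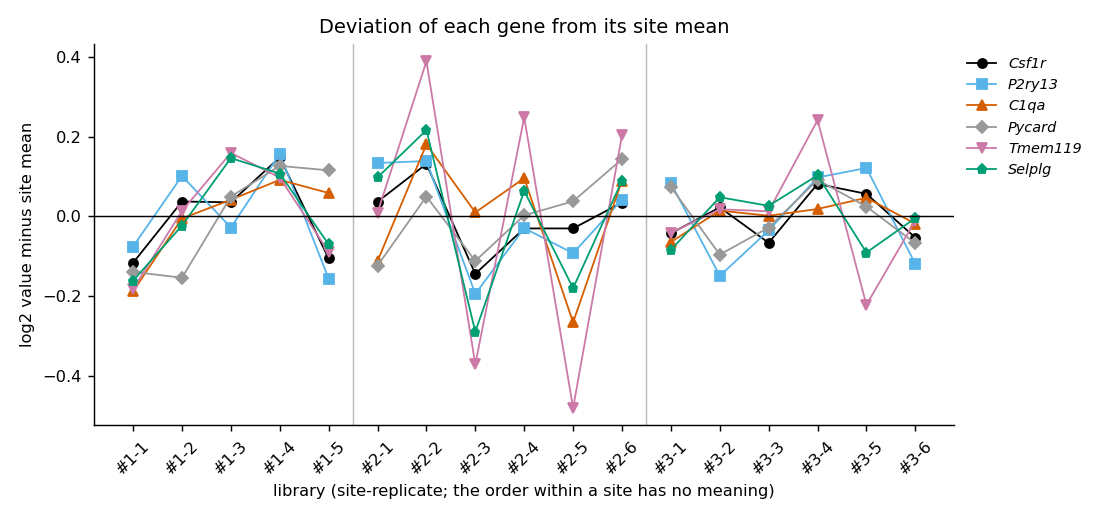
Log2 value of each gene minus its site mean in the 17 libraries, 1 line per gene within a site; the order of replicates has no meaning. All 6 genes lie above 0 in 4 libraries, and Tmem119 and Selplg are both lowest in replicates 3 and 5 of Site #2.

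The 6 genes tended to be high or low in the same rats. After each gene was centred on its site mean, all 6 were above 0 in 4 libraries (replicate 4 of Site #1, replicates 2 and 6 of Site #2 and replicate 4 of Site #3). At most 1 of the 6 was above 0 in 4 other libraries (replicate 1 of Site #1, replicates 3 and 5 of Site #2 and replicate 6 of Site #3). The mean of the 6 genes, each scaled to its SD, ran from -1.38 in replicate 3 to 1.39 in replicate 2 of Site #2. All 15 pairs of genes had a Pearson r above 0 over the 17 libraries, with a median of 0.483 and a range from 0.262 to 0.911. The median r of each gene with all genes tested was between -0.0193 and 0.0254.

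**Figure D4:**
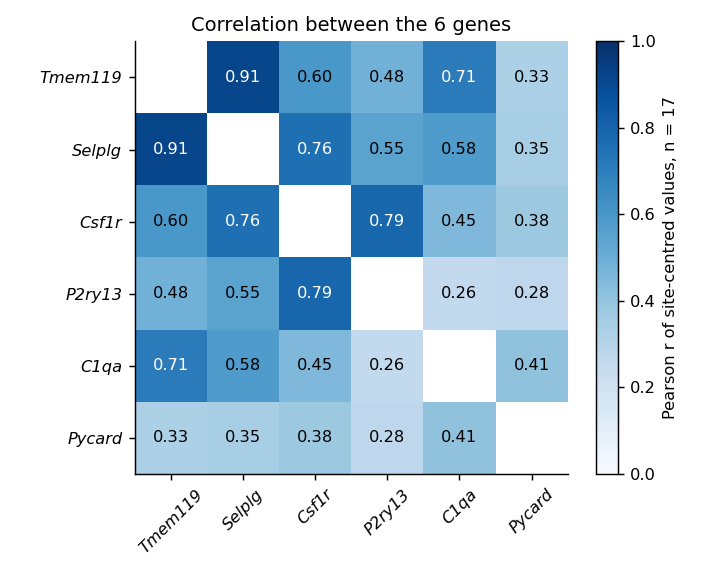
Pearson r between the 6 genes over 17 libraries, on values centred on the site mean. Tmem119 and Selplg have the highest r at 0.91, and the values with Pycard are between 0.28 and 0.41.

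Tmem119 and Selplg, the neighbours on chromosome 12, followed each other most closely. Their r was 0.91 (permutation p = 8e-05 within sites, 0.0012 after Benjamini-Hochberg adjustment over the 15 pairs) and Spearman's rho was 0.89 (permutation p = 3e-05). Each was the gene of highest r with the other among 22663 genes. Without replicates 3 and 5 of Site #2, the libraries farthest from the median of Tmem119, r was 0.83. Within sites of 6 libraries r was 0.92 at Site #2 (exact p = 0.0194) and 0.88 at Site #3 (exact p = 0.00139). Csf1r and its neighbour Pdgfrb had an r of -0.237, given as a description. Pdgfrb is not among the microglial markers, and whether gene position bears on these values was not tested.

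Csf1r and P2ry13 had an r of 0.79 (permutation p = 0.00076, adjusted 0.0057) and a rho of 0.85 (permutation p = 0.00018), and each ranked 8 of 22663 genes for the other. Without the 2 farthest libraries r was 0.67. It was 0.93 at Site #2 (exact p = 0.00278) and 0.45 at Site #3 (exact p = 0.31), and the difference between sites was not tested. Csf1r and Selplg had an r of 0.76 (permutation p = 0.00116, adjusted 0.0058) and a rho of 0.67 (permutation p = 0.00901). Without the 2 farthest libraries it was 0.65, with 0.91 at Site #2 (exact p = 0.00278) and 0.27 at Site #3 (exact p = 0.562).

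Tmem119 with C1qa (r = 0.71, permutation p = 0.0159) and with Csf1r (r = 0.60, permutation p = 0.0131) also passed the adjustment over pairs, both at 0.0478. Their rho of 0.66 and 0.55 did not, at 0.0723 and 0.0753 after adjustment of the permutation p-values. Without the 2 farthest libraries r was 0.61 and 0.51. At Site #2 alone it was 0.82 (exact p = 0.0486) and 0.73 (exact p = 0.1), and at Site #3 alone -0.10 (exact p = 0.883) and 0.19 (exact p = 0.715). Over the 15 pairs, 5 passed by r and 3 by rho. Pycard passed with no other gene, and its r with the other 5 was between 0.28 and 0.41. At Site #3, however, P2ry13 and Pycard had the highest r of any pair, 0.93 (exact p = 0.025), against 0.22 at Site #2 (exact p = 0.672). The median r of the 15 pairs was 0.621 in the 5 libraries of Site #1, with 1 pair below 0, 0.557 at Site #2, with 0 below 0, and 0.218 at Site #3, with 5 below 0. These differences between sites were not tested.

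**Figure D5:**
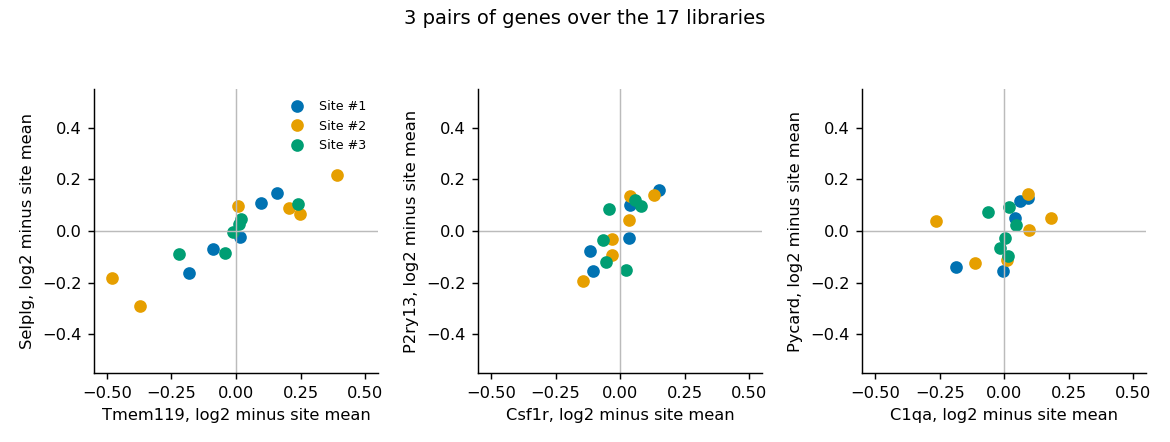
Site-centred log2 values of 3 pairs of genes, 1 point per library coloured by site, on axes of equal scale. Tmem119 and Selplg (r = 0.91) lie along a line in all 3 sites, Csf1r and P2ry13 (r = 0.79) less closely, and C1qa and Pycard (r = 0.41) scatter.

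Markers of other cell types were set beside the 6 genes in the same way. The mean of the 6 had an r of -0.0672 with the mean of 5 astrocyte markers, -0.367 with 4 neuronal markers, 0.215 with the oligodendrocyte marker Cers2 and -0.196 with 4 widely expressed genes, values given as descriptions over 17 libraries. With Col1a1 it was -0.363, and with Cd163, a marker of border macrophages, 0.0116. Between Sites #2 and #3, where C1qa and Csf1r differed most, 0 of these 14 markers passed by limma, and 3 of 14 had an unadjusted p under 0.05 (14.8% of all genes). The astrocyte genes Gfap (log2 difference 0.16, adjusted p = 0.240) and Gja1 (0.10, adjusted p = 0.297) were on the higher side at Site #3, and Gad2 of inhibitory neurons was on the lower side (-0.14, adjusted p = 0.195). Flt1, a receptor of the vessel lining, had a log2 difference of 0.14 (adjusted p = 0.137). The part of these cells in the differences of C1qa and Csf1r was not tested.

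The genes most like the mean of the 6 were taken from 10690 genes with a mean log2 value of at least 8. Of these, 748 had a symbol in the study's lists of marker genes or differentially methylated genes. Irf8, a transcription factor that microglia need, had an r of 0.778 with the mean and ranked 3 of the 10690, with r from 0.518 to 0.719 for single genes. Its mean log2 value was 8.22 ± 0.0781 (SD, n = 5) in Site #1, 8.24 ± 0.0521 (SD, n = 6) in Site #2 and 8.27 ± 0.0588 (SD, n = 6) in Site #3, all within 1 SD of each other. Among the 748 genes with a symbol, the next were Eftud2, a factor of the spliceosome (0.723, rank 13 of all 10690), Fstl4 (0.719), Afap1l2 (0.702) and Tacc2 (0.638, rank 46). The lowest of the 748 were Lingo3 (-0.648), Slc7a11, the cystine transporter (-0.612), and Tmtc3 (-0.611). Over all genes tested 2.26% had an r above 0.5 with the mean of the 6.

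Of 26 other microglial genes on the list used here, 4 could be matched through the symbols available: Sall1, Irf8, Ptprc and Runx1. These symbols came from the study's marker list and its lists of differentially methylated genes of Site #1 against the other sites. An unmatched gene is thus not shown to be absent from the files. Matched genes outside the marker list are ones that the study called in methylation. Sall1, a transcription factor that keeps microglial identity but is also made by other neural cells, was higher at Site #3 than at Site #2. It was between 10.02 and 10.17 in the libraries of Site #2 and between 10.20 and 10.32 in those of Site #3, without overlap. The log2 difference was 0.19 (SE 0.033, adjusted p = 0.0235 by limma), and it passed in 14 of 21 other settings, with adjusted p from 0.0166 to 0.119. It did not pass for Site #1 against Site #3 (0.09, adjusted p = 0.576, 0 of 20 other settings) or for Site #3 against the mean of the others (0.14, adjusted p = 0.0550, 5 of 25). The other 3 did not pass in any pair, and the median difference of the 4 between Sites #2 and #3 was 0.0434.

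Around the receptors, 1 of 11 genes of CSF1R signalling was matched, the ligand Il34, which did not pass in any pair, and whose r with Csf1r was -0.463. Of 13 purinergic genes 5 were matched (P2ry2, P2rx4, P2rx5, P2rx7 and Nt5e), of which 1 passed between Sites #2 and #3. The median log2 difference of the 5 in that pair was -0.0992. P2rx5 was at -0.15 (interval -0.270 to -0.0324, adjusted p = 0.210 by limma), while Nt5e was on the higher side at 0.04. The gene that passed was P2rx4, an ATP-gated channel, which was between 9.06 and 9.22 at Site #3 and between 9.37 and 9.65 at Site #2. Its log2 difference was -0.31 (adjusted p = 0.0133 by limma), opposite in sign to C1qa and Csf1r, and it passed in 19 of 21 other settings (adjusted p from 0.00323 to 0.0591). It was also lower at Site #3 than at Site #1 (-0.41, adjusted p = 0.0442, passing in 7 of 20 other settings) and than the mean of the other sites (-0.36, adjusted p = 0.00288, passing in 25 of 25). Its r with P2ry13 was -0.112. Of 8 genes of the TGF-beta axis, which microglia need to mature, 2 were matched and neither passed. Smad2, its signal transducer, had an r of 0.816 with Csf1r, 0.601 with P2ry13 and 0.249 to 0.436 with the other 4, and the receptor gene Tgfbr2 had 0.267 with Csf1r, all as descriptions.

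Of 13 genes of reactive microglia 4 were matched (Apoc1, Lgals3, Gpnmb and Ccl2) and 1 passed between Sites #2 and #3. This was Apoc1, an apolipoprotein, lower at Site #3 with a log2 difference of -0.48 (adjusted p = 0.0328 by limma). It passed in 10 of 21 other settings, with adjusted p from 0.013 to 0.158. Against Site #1 its log2 difference was -0.62 (adjusted p = 0.0208, passing in 14 of 20), and against the mean of the other sites -0.55 (adjusted p = 0.00257, passing in 25 of 25). Gpnmb, a glycoprotein of reactive macrophages, had a log2 difference of the other sign between Sites #2 and #3 (0.15, interval 0.0301 to 0.276, adjusted p = 0.221), while Lgals3 and Ccl2 were at -0.04 and -0.03. Of 12 genes of border macrophages and blood leukocytes 4 were matched, and Itgad, an integrin chain of macrophages, was higher at Site #3 than at Site #2 by 0.37 (adjusted p = 0.0271 by limma). It passed in 12 of 21 other settings, with adjusted p from 0.00794 to 0.181. It did not pass for Site #1 against Site #3 (adjusted p = 0.688) or for Site #3 against the mean of the others (adjusted p = 0.0759, passing in 1 of 25). The other 3 did not pass between Sites #2 and #3, with log2 differences of -0.0028 for Cd163, -0.03 for Ccr7 and 0.69 for Cd3e (interval 0.0972 to 1.28, adjusted p = 0.256). The single matched genes of the inflammasome and adhesion lists, Il1a and Vcam1, did not pass, and none of 16 complement genes was matched. Over the 27 genes of all lists, 2 passed as higher and 2 as lower at Site #3 than at Site #2, where 1.05% of all genes were DEGs. For Site #1 against Site #3, 2 passed as lower at Site #3 (0.101% of all genes). The choroid plexus genes F5 and Aqp1 did not pass between Sites #2 and #3 (adjusted p = 0.652 and 0.495 by limma). These lists were chosen with earlier results known, and nothing is read from their share.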

How the data were processed

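RNA was measured in 17 hippocampal libraries, grouped by the site in the sample labels. The authors aligned reads to rn6 with HISAT2, counted them with featureCounts and used DESeq2. They deposited 1 log2 value per gene and library, normalized by a step not given in the sources used here; values ran from -2.28 to 20.22. The files hold no counts, so the depth behind a value cannot be read from them and no counting interval is given; precision is set by the 5 or 6 rats of a site. The labels name hippocampal tissue and a TruSeq mRNA kit. The methods of the study describe extraction from flash-frozen hippocampi, but in 1 place speak of microglia preparations, and they name an NEBNext kit. The labels were followed.

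Genes at 0 in all libraries (9830) were left out. Each pair of sites was fitted with limma 3.58.1 in R 4.3.3 (eBayes with trend, two-sided, Benjamini-Hochberg adjustment over 22664 genes); tests had been planned for either counts or log2 values, and the fit was tested on simulated data. Folds are 2 raised to the log2 difference, which the normalization can shrink. Exact permutation used all assignments of libraries to sites. Correlations used values centred on site means and 100000 permutations within sites, with Python 3.11.15 and scipy 1.17.1. The members and lists were chosen with earlier results of these data known. Named from a list were genes with an adjusted p under 0.05 and up to 4 more. Named as most alike were the 5 highest and 3 lowest r among genes with a symbol. Symbols came from the study's marker list and its lists of differentially methylated genes of Site #1 against the other sites, for 1436 of the tested genes. Alternatives were other filters, scalings, weights and variance settings, a replicate block and leaving out each library.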

Additional observations from a re-analysis of the deposited data

How the results depend on the processing

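Between 20 and 25 other settings were run for each comparison. No microglial gene was a DEG under any of them for Site #1 against Site #2, Site #1 against Site #3, Site #3 against the mean of the others, or any difference among sites. For Site #2 against Site #3 the count of DEGs among the 6, 0 as reported, was 2 with genes of mean at least 5, 1 with quantile normalization, 1 with all 17 libraries in one fit, and 0 to 2 when 1 library was left out, 2 only without replicate 2 of Site #2. At an unadjusted p under 0.05, the count for Site #1 against Site #2 (1) was 0 with median centring, 2 in the fit of all 17 libraries and 0 to 2 when 1 library was left out; that for Site #1 against Site #3 (2) was 1 with median centring, 0 with all 17 libraries, 1 without the 4 libraries of high Col1a1 and 1 to 3 when 1 library was left out. The count for Site #2 against Site #3 (2) was 2 to 4 and that for Site #3 against the others (2) was 2 to 4 when 1 library was left out, the latter 1 without the high Col1a1 libraries; the cause was not tested. Differences near 0 changed sign. When 1 library was left out, Tmem119 in Site #1 against Site #2 ran from -0.0529 to 0.121 and Pycard from -0.053 to 0.0173, and P2ry13 from -0.00112 to 0.0772 in Site #1 against Site #3, from -0.0449 to 0.0238 in Site #2 against Site #3 and from -0.00843 to 0.0458 in Site #3 against the others. Pycard in Site #1 against Site #2 was 0.0047 with quantile normalization, 0.0044 with median centring, 0.0203 with array weights and 0.0368 without the high Col1a1 libraries; P2ry13 in Site #3 against the others was -0.0011 with array weights and -0.0067 without those libraries. The median r of the 15 pairs was 0.395 to 0.606 when 1 library was left out, lowest without replicate 2 of Site #2, and above 0 in 15 of 15 pairs in every setting. Exact permutation gave 4 to 7 of 18 with 1 library left out. The counts of DEGs over all genes moved as well. With 1 library left out they were 9 to 30 for Site #1 against Site #3, in place of 23. They were 78 to 224 for Site #3 against the mean of the others, in place of 174. For any difference among sites they were 53 to 144, in place of 115. Of the 5 most alike genes, 2 were shared without centring on site means. The 3 lowest genes were then Ptn, LOC100363502 and Paqr3. With genes of mean at least 5 the 3 lowest were Trnp1, Mycn and Lingo3. The files hold no counts, so what depth limits was not examined.

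Replicate numbers are shared between sites but name different rats, and same-numbered libraries did not deviate together (correlations from -0.527 to 0.435). With the replicate number as a block, the count at an unadjusted p under 0.05 for Site #1 against Site #2 was 2. The Tmem119 difference in that pair was -0.0157. For Site #2 against Site #3 all genes gave 43 DEGs in place of 239, and the smallest adjusted p of a microglial gene was 0.0975. The block gave 0 DEGs over all genes for Site #1 against Site #3. It gave 62 for Site #3 against the mean of the others and 26 for any difference among sites.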

Other observations

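Among genes of other cells, Gad2, which makes GABA in inhibitory neurons, had an r of -0.718 with C1qa over the 17 libraries on site-centred values, and between -0.386 and 0.205 with the other 5 genes; this value was noticed after it was computed and carries no test. Runx1, a myeloid transcription factor with a mean log2 value of 4.72, had an r of -0.56 with Tmem119 and Selplg alike, and 0.255 with Pycard. ENSRNOG00000011054 (r = 0.853) and ENSRNOG00000019463 (r = 0.803), which had no symbol in the tables used, ranked above Irf8 among the 10690 genes compared with the mean of the 6.

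Genes without a symbol in the tables used were not named, and 4 of 26 other microglial genes and 0 of 16 complement genes had one. Replicates are rats of 1 site, and each site is a single laboratory.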
